A study of Mus musculus with 12 samples.

Results

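The interleukin 1 family cytokines were examined in scraped epidermis of mice with and without epidermal Pparg. The members were the rows of the deposited count table named Il1a, Il1b, Il18, Il33, Il1f6, Il1f8, Il1f9, Il1rn, Il1f5 or Il1f10, and all 10 were among the 14533 genes listed, 7 agonists and 3 antagonists. Non-lesional dorsal skin was taken from 6 WT and 6 Pparg-/-epi mice of the C57BL/6 background, with 1 library per mouse. Mice of both groups were untreated, were 8 to 13 weeks old by the labels (the study's own list of samples gives other ages for some mice) and carried floxed Pparg alleles on both chromosomes. The Pparg-/-epi mice also carried Cre recombinase (Cre+/-) under the promoter of cytokeratin 14, a keratin of basal keratinocytes in the interfollicular epidermis and the follicles, and the WT mice lacked Cre (Cre-/-). The scraping reached the superficial dermis, so the tissue is not pure epidermis.

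Interleukin 1 family cytokines are small proteins that keratinocytes and immune cells make and that bind receptors of the Toll and IL-1 receptor superfamily. An agonist draws an accessory receptor chain to its receptor and starts NF-kB signaling, while a receptor antagonist occupies the same receptor without starting the signal. IL-1α and IL-1β act through Il1r1 and are opposed by the IL-1 receptor antagonist. The 3 IL-36 cytokines act through Il1rl2 and are opposed by the IL-36 receptor antagonist. IL-1β and IL-18 are made as inactive precursors that caspase-1 cleaves in inflammasomes, and IL-33 is kept in the nucleus and released from damaged cells. IL-36 cytokines are made chiefly by epithelia and are known for their part in psoriasis.

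Each WT library held 10120840 to 16947632 counts and each Pparg-/-epi library 11272135 to 18851255. One count was worth 0.0520 to 0.107 CPM (counts relative to the library total, after TMM scaling). Every listed gene is above 0.5 CPM in at least 6 mice. Counts of Pparg itself ran from 5 to 269 among WT and from 16 to 107 among Pparg-/-epi mice (log2 fold change -0.10, SE, the standard error, 0.71, adjusted p = 0.949). Excision leaves a shortened Pparg transcript that is counted over the whole gene, so these counts do not check the genotype. The keratinocyte markers (6 of 6 listed, led by Krt10 and Krt5) summed to 16497 to 43686 CPM in WT mice and 27950 to 51292 CPM in Pparg-/-epi mice. WT replicate 2 stood apart, with the lowest keratinocyte sum of the 12 mice. It also had the highest monocyte or macrophage, Langerhans or dendritic cell, adipocyte and sebocyte sums. Fibroblast markers were highest in WT replicate 1, at 34682 CPM, and skeletal muscle markers in WT replicate 5, at 9059 CPM. In such bulk tissue, fewer cells of a type and less RNA per cell cannot be told apart.

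The groups were compared by the quasi-likelihood test of edgeR, which gave every adjusted p below unless another is named (Benjamini-Hochberg, all 14533 genes). The word altered is kept for genes with an adjusted p under 0.05 whose log2 fold change was 0.6 or more in size. By this rule 10.3% of all genes were altered, of which those higher in Pparg-/-epi mice made 5.19% of all genes and those lower made 5.08%. Of the 10 members 6 were altered, 5 higher and 1 lower. Of the 7 agonists 4 were higher (Il1f6, Il1f8, Il18 and Il1f9) and 1 was lower (Il33). Of the 3 antagonists 1 was higher (Il1f5). The CPM values of the groups did not overlap for 5 of the 10 members, against 7.9% of all genes. The median log2 fold change was 0.79 over the members and -0.01 over all genes.

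**Figure D1:**
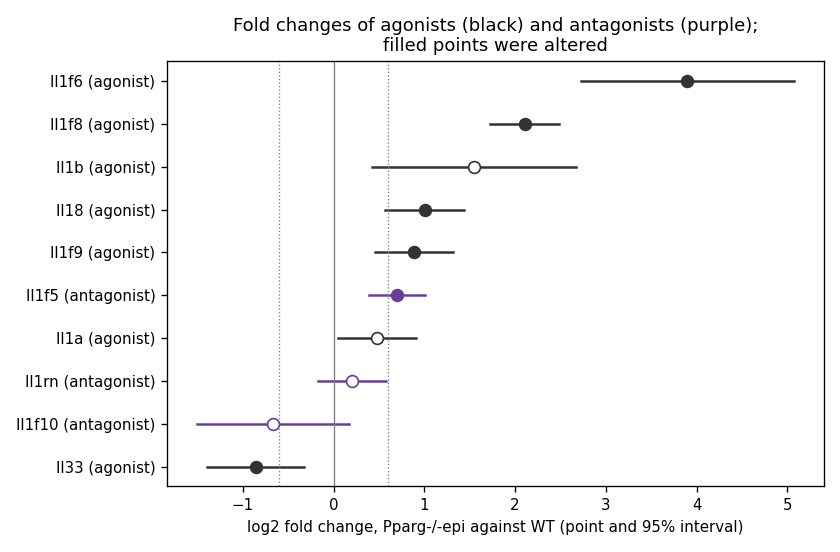
Log2 fold change of each member in Pparg-/-epi against WT mice (x axis) with its 95% interval, agonists in black and antagonists in purple; filled points were altered, and dotted lines mark 0.6 and -0.6. Il1f6 lies farthest to the right at 3.90 and Il33 farthest to the left at -0.86.

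Of the 10 members 6 lie in a stretch of 198 kb on chromosome 2, from 24153172 to 24351491 of mm10, all on the plus strand. In this order they are Il1f8, Il1f9, Il1f6, Il1f5, Il1f10 and Il1rn. Gaps between neighbours ran from 8.76 kb, between Il1f5 and Il1f10, to 51.3 kb, between Il1f6 and Il1f5. No other gene in the stretch is listed in the count table. The first 4 of the 6 were altered and higher, and the last 2 were not altered. The nearest listed gene within 200 kb after Il1rn, Psd4, did not pass the test (log2 fold change 0.20, SE 0.08, adjusted p = 0.110), and the one before Il1f8, Hnmt, was lower (log2 fold change -1.47, SE 0.23, adjusted p = 0.00130).

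**Figure D2:**
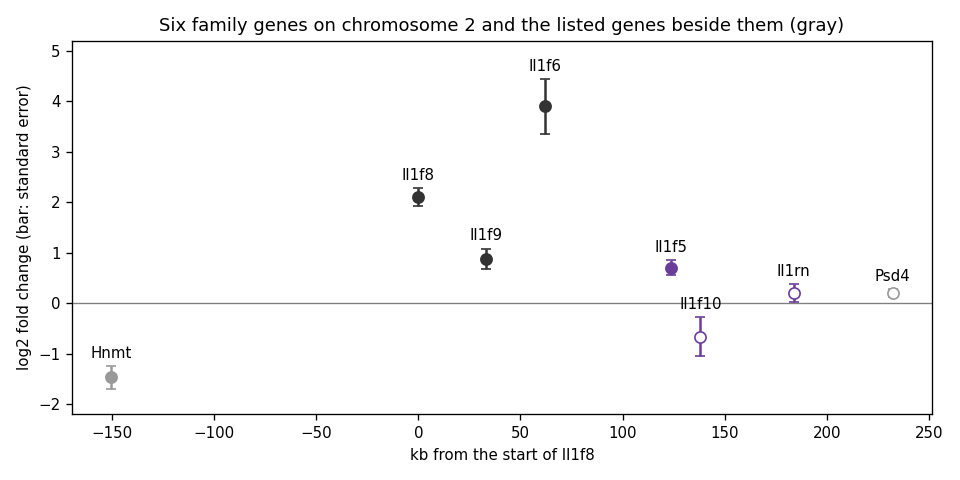
Log2 fold change with its standard error (y axis) by the start of each gene in kb from the start of Il1f8 (x axis), with agonists in black, antagonists in purple and the 2 listed genes beside the stretch in gray; filled points were altered. The agonists Il1f8 and Il1f6 stand clear above the antagonists, which lie between -0.67 and 0.70. The bar of the agonist Il1f9 overlaps that of the antagonist Il1f5.

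The DNA before the start of 4 of these genes is shown because Il1f8, Il1f9 and Il1f5 rose and their neighbour Il1rn did not pass the test. Each sequence is the 250 bases before the first RefSeq start of the gene, on the plus strand of chromosome 2 (GRCm38.p6, the assembly called mm10). They are chr2:24152922-24153171 for Il1f8, chr2:24186226-24186475 for Il1f9, chr2:24276704-24276953 for Il1f5 and chr2:24336610-24336859 for Il1rn. Capitals mark the AP-1 motif TGANTCA, the sequence bound by Fos and Jun proteins.
Il1f8: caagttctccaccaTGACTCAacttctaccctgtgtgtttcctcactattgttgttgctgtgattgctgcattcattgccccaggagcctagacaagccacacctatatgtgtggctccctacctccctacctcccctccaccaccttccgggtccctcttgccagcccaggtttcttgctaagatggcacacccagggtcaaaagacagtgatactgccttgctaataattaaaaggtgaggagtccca
Il1f9: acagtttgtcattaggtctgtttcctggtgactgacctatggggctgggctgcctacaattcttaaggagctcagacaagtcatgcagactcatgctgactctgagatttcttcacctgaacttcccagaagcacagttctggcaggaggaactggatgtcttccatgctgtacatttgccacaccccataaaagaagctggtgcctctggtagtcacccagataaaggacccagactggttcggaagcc
Il1f5: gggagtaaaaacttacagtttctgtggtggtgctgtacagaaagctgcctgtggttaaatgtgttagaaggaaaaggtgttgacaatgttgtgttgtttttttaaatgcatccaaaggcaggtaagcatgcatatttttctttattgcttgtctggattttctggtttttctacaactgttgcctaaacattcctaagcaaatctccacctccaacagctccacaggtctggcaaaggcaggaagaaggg
Il1rn: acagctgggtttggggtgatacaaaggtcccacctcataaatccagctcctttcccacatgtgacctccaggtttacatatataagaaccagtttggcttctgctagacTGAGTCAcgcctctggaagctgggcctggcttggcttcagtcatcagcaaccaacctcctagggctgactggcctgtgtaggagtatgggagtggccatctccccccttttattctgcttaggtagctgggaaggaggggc
Il1f8 and Il1rn each hold 1 AP-1 motif, 236 and 141 bases before the start, and the windows of Il1f9 and Il1f5 hold none.

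Promoter windows of 300 bases, from 250 before to 50 after a start, were given by RefSeq for 9 of the 10 members, 13 windows in all, and not for Il1f6. Motifs were searched on both strands, and none overlapped another motif. AP-1 was found in 3 of the 13 windows, those of Il1f8, Il1rn and Il1a, and in 7.81% of all 32851 promoter windows. TATAAA, the letters of the TATA box, was found in 6 of the 13 windows, of 5 genes, and in 13.6% of all windows. In Il1a, Il1b and a window of Il33 it stands 32, 31 and 29 bases before the start. The other matches lie 203 bases before the start in another Il33 window, 175 before that of Il18 and 14 after that of Il1rn. The NF-kB consensus was in 0 of 13 windows and in 4.51% of all, and the direct repeat 1 that PPARγ binds with RXR was in 0 of 13 windows and in 0.578% of all. These are matches of letters in 13 windows and describe no binding.

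The IL-36 agonists had the 2 largest fold changes of the family. Il1f6, which encodes IL-36α, lies on chromosome 2 from 24215417 to 24225701 in 6 exons. Its lowest, median and highest CPM were 0.538, 1.99 and 8.50 in WT mice and 31.98, 39.7 and 57.2 in Pparg-/-epi mice. The lowest Pparg-/-epi mouse was 3.76-fold above the highest WT mouse. The mean rose from 2.82 ± 2.94 to 42.002 ± 9.59 CPM (SD, n = 6 mice in each group), or 14.9-fold (log2 fold change 3.90, SE 0.54, adjusted p = 7.97e-04). Counts in WT mice were few, from 8 to 133, with a wide relative spread, and the highest value was that of WT replicate 1. Leaving it out gave a log2 fold change of 4.68.

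Il1f8, which encodes IL-36β, lies on chromosome 2 from 24153172 to 24160103 in 5 exons. Lowest, median and highest CPM were 18.8, 22.4 and 35.6 in WT mice and 78.8, 100.8 and 127.7 in Pparg-/-epi mice. The groups were separated by more than the whole spread of the WT mice. Il1f8 rose 4.30-fold (log2 fold change 2.11, SE 0.18, adjusted p = 3.32e-05), and the log2 value stayed between 2.04 and 2.24 when each mouse was left out in turn.

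Il1f9, which encodes IL-36γ, lies on chromosome 2 from 24186476 to 24193567 in 5 exons. The CPM (lowest, median and highest mouse) was 43.04, 84.0 and 112.5 in WT mice and 112.8, 151.3 and 185.3 in Pparg-/-epi mice. The groups did not overlap, but the highest WT mouse and the lowest Pparg-/-epi mouse were almost equal. The rise was 1.85-fold (log2 fold change 0.88, SE 0.20, adjusted p = 0.0102). In the 7 female mice alone the log2 value was 1.03, but the call was lost (adjusted p = 0.0618). Krt5, the keratin of basal keratinocytes, was among the 3 genes most like Il1f9 across mice, as described further on.

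**Figure D3:**
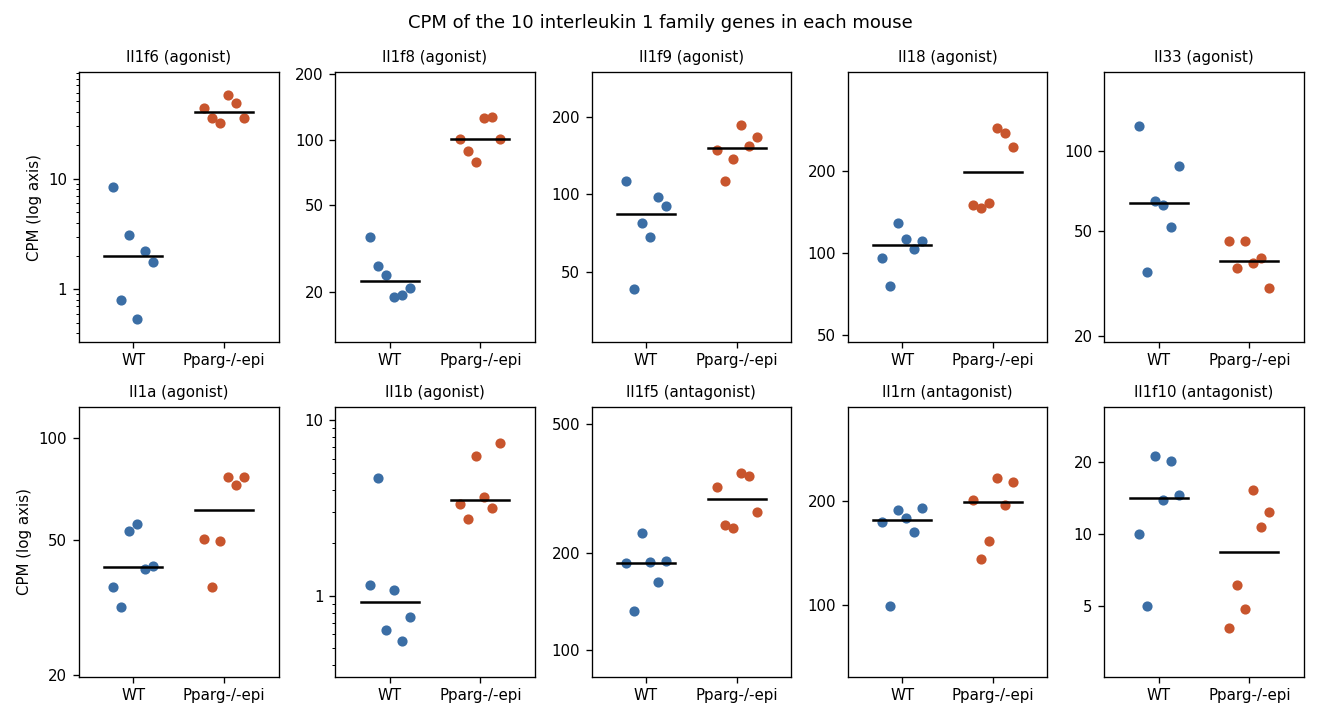
CPM on a log axis in each mouse for the 10 genes, with WT mice in blue, Pparg-/-epi mice in orange and the median of each group as a black line. The groups are apart for Il1f6, Il1f8, Il1f9, Il18 and Il1f5 and overlap for Il33, Il1a, Il1b, Il1rn and Il1f10.

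Il1f5 encodes the IL-36 receptor antagonist and lies on chromosome 2 from 24276954 to 24282432 in 5 exons. In CPM, the lowest, median and highest mice were at 132.2, 186.2 and 230.7 in WT mice and 238.7, 293.1 and 352.5 in Pparg-/-epi mice. The antagonist rose with the agonists, and its groups did not overlap. It rose 1.63-fold (log2 fold change 0.70, SE 0.14, adjusted p = 0.00631), a smaller fitted value than that of Il1f6 or Il1f8. The call was lost in females only, where the log2 value was 0.76 (adjusted p = 0.0761).

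The agonist to antagonist balance was followed in each mouse as a ratio of RPKM values (CPM per kilobase of counted gene length), since levels of different genes can be compared only per length. Over Il1f6, Il1f8 and Il1f9 together, the summed level was 83.3 ± 22.02 RPKM in WT mice and 270.5 ± 46.6 RPKM in Pparg-/-epi mice (SD, n = 6). The ratio of this sum to Il1f5 was between 0.683 and 1.29 in WT mice and between 1.64 and 1.96 in Pparg-/-epi mice, without overlap. On the log2 scale its mean was -0.17 ± 0.35 in WT mice and 0.84 ± 0.09 in Pparg-/-epi mice, a difference of 1.02. The ratio is a description with no test of its own, since its genes had been seen to differ.

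The change in this ratio was unequal among the 3 agonists. The mean log2 ratio to Il1f5 differed between the groups by 3.75 for Il1f6, by 1.42 for Il1f8 and by 0.23 for Il1f9. The ratios of Il1f6 and Il1f8 did not overlap between groups, and that of Il1f9 did. Il1f6 was at most 0.101 of the Il1f5 level in a WT mouse and at least 0.292 of it in a Pparg-/-epi mouse, both per length.

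**Figure D4:**
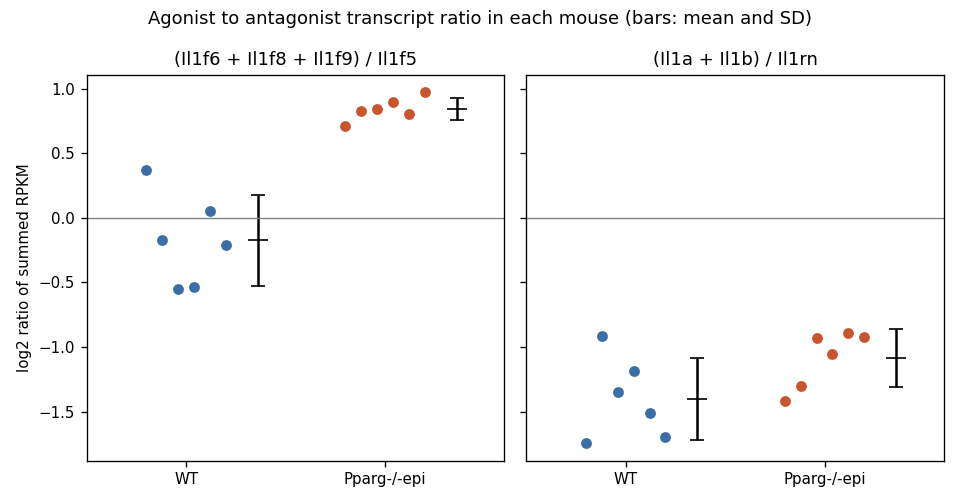
Log2 ratio of summed RPKM (y axis) in each mouse for the IL-36 agonists over Il1f5 and for Il1a plus Il1b over Il1rn, with the mean and SD of each group beside the points. The IL-36 ratio is 0.71 or more in every Pparg-/-epi mouse and 0.37 or less in every WT mouse, and the Il1a and Il1b ratio overlaps between groups.

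Neither of the IL-1 cytokines proper was altered, although both had an unadjusted p under 0.05 (0.0331 for Il1a and 0.0105 for Il1b) and DESeq2 called Il1b (adjusted p = 0.0197). Il1a encodes IL-1α, which keratinocytes store, and lies on the minus strand of chromosome 2 from 129299610 to 129309972 in 7 exons. Its lowest, median and highest CPM were 31.7, 41.6 and 55.9 in WT mice and 36.3, 61.5 and 77.0 in Pparg-/-epi mice, with overlap. In the fit its log2 fold change was 0.48 (SE 0.20, adjusted p = 0.130), with a 95% interval from 0.04 to 0.91. With RIN (the RNA integrity number) in the model the adjusted p was 0.0309 at 0.62, so that Il1a was then called altered. The same held with breeding numbers in the model as an earlier (192 to 222) and a later (225 and 226) block, where the adjusted p was 0.0220 at 0.64. In female mice alone the log2 fold change was 0.27 (adjusted p = 0.598).

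Il1b encodes IL-1β and lies on the minus strand of chromosome 2 from 129364580 to 129371120 in 7 exons. It was the least abundant member in both groups, at 6 to 88 reads counted per WT mouse and 35 to 103 per Pparg-/-epi mouse. Lowest, median and highest CPM were 0.553, 0.915 and 4.67 in WT mice and 2.73, 3.49 and 7.39 in Pparg-/-epi mice. Only 1 WT mouse overlapped the Pparg-/-epi range, and the other 5 WT mice were at or below 1.15 CPM. Il1b missed the threshold at a log2 fold change of 1.55 (SE 0.52, adjusted p = 0.0622). Without WT replicate 2 it was 2.36 with an adjusted p of 6.92e-04, and Il1b was then altered. In female mice alone, which include that mouse, it was 0.83 with an adjusted p of 0.488.

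WT replicate 2, the mouse with the highest Il1b of its group, also had the highest level of monocyte or macrophage markers (9 of 9 listed). These summed to 644 CPM there, to 97.3 to 328 CPM in the other WT mice and to 199 to 395 CPM in Pparg-/-epi mice. Their part in the Il1b values was not tested. Il1a overlaps Gm14023 and Il1b overlaps Il1bos on the opposite strand in the GENCODE annotation. The strand setting of the counting is not given in the sources used here, so reads of these partners may be included.

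Il1rn encodes the IL-1 receptor antagonist and lies on chromosome 2 from 24336860 to 24351491 in 6 exons. The CPM (lowest, median and highest mouse) was 99.6, 176.6 and 190.7 in WT mice and 135.6, 198.3 and 233.2 in Pparg-/-epi mice, with overlap. Il1rn did not pass the test (log2 fold change 0.20, SE 0.17, adjusted p = 0.478), and the 95% interval from -0.17 to 0.58 holds both no change and a rise of up to 0.58. The summed level of Il1a and Il1b per length was 0.299 to 0.529 of that of Il1rn in WT mice and 0.374 to 0.540 of it in Pparg-/-epi mice. The mean log2 ratio differed by 0.32, about the SD among WT mice (0.32), and the groups overlapped. Taken singly, the mean log2 ratio to Il1rn differed by 1.73 for Il1b and by 0.24 for Il1a, which makes up most of the sum, and each overlapped between groups.

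Il1f10, which encodes IL-38, is counted among the antagonists and lies on chromosome 2 from 24291196 to 24293820 in 4 exons. In CPM, the lowest, median and highest mice were at 4.99, 14.1 and 21.1 in WT mice and 4.06, 8.40 and 15.3 in Pparg-/-epi mice, with overlap. Il1f10 did not pass the test (log2 fold change -0.67, SE 0.39, adjusted p = 0.282), and the 95% interval from -1.51 to 0.18 leaves its direction unsettled. With RIN in the model the log2 value was -0.20 (adjusted p = 0.713), and with the breeding blocks -0.29 (adjusted p = 0.624).

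Il18 encodes IL-18, a cytokine that drives interferon gamma production by T cells, and lies on chromosome 9 from 50565368 to 50581837 in 6 exons. Its lowest, median and highest CPM were 75.6, 107.1 and 129.2 in WT mice and 147.1, 199.1 and 288.3 in Pparg-/-epi mice. The groups did not overlap. Il18 rose 2.01-fold (log2 fold change 1.01, SE 0.20, adjusted p = 0.00563). Among females only it was 0.86 on the log2 scale and not altered (adjusted p = 0.116).

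Within the Pparg-/-epi group the Il18 values fell into separate ranges by breeding number. The 3 mice of breeding numbers 192 and 195 had 147.1 to 153.1 CPM, and the 3 mice of 222 and 225 had 245.0 to 288.3 CPM. Among WT mice, those of 217 and 222 had 75.6 to 95.7 CPM and the 4 mice of 226 had 103.8 to 129.2 CPM. In both genotypes Il1a and Il1f10 were likewise higher, without overlap, in the mice with the higher of these numbers. Il1a was 36.3 to 50.4 CPM in Pparg-/-epi mice of 192 and 195 and 72.6 to 77.0 CPM in those of 222 and 225, and Il1f10 was 4.06 to 6.12 and 10.7 to 15.3 CPM. Il1f9 showed such a separation in Pparg-/-epi mice alone, from 112.8 to 148.8 CPM against 153.8 to 185.3 CPM. The dividing line was not the same in both genotypes, since number 222 is on the high side among Pparg-/-epi mice and on the low side among WT mice. RIN moved with these ranges, at 7.4 to 8.6 in the mice of the low sides and 5.7 to 7.7 in those of the high sides. The ranges were seen after the values were known, and the part of RIN or of breeding in them was not tested.

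Only number 222 holds both genotypes, 1 mouse of each. The Pparg-/-epi mouse was above the WT mouse for 9 of the 10 genes, by 6.17 on the log2 scale for Il1f6, 2.26 for Il1f8 and 1.93 for Il18. Il1b was the exception at -0.35. The WT mouse of this pair is replicate 2, which had the lowest CPM of its group for 7 of the 10 genes.

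Il33, the alarmin of epithelial and stromal cells, was the only altered member that was lower. It lies on chromosome 19 from 29925114 to 29960715 in 9 exons. Lowest, median and highest CPM were 35.1, 64.0 and 124.2 in WT mice and 30.6, 38.6 and 45.9 in Pparg-/-epi mice. The spread was far wider in WT mice, and WT replicate 2, at 35.1 CPM, lay inside the Pparg-/-epi range while the other 5 WT mice lay above it. Its log2 fold change was -0.86 (SE 0.25, adjusted p = 0.0331). The direction held in all 12 fits that each left out 1 mouse, from -1.01 to -0.64, but the call was lost in 8 of them, with adjusted p up to 0.0721. These were the fits without WT replicate 1, 4 or 6 and without Pparg-/-epi replicate 8, 9, 10, 11 or 12. With sex in the model the adjusted p was 0.0509, and with RIN 0.0566. In female mice alone the log2 fold change of Il33 was -0.58 (adjusted p = 0.272).

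Levels per length placed Il18 first in both groups, at 120.8 ± 20.8 RPKM in WT mice and 242.6 ± 77.8 RPKM in Pparg-/-epi mice. In WT mice the order then ran Il1f5, Il1rn, Il1f9, Il1f8, Il33, Il1f10, Il1a, Il1f6 and Il1b. Each neighbouring pair in it overlapped over mice, except Il1a (16.1 to 28.3 RPKM) and Il1f6 (0.609 to 9.63 RPKM). In Pparg-/-epi mice the order ran Il18, Il1f5, Il1f8, Il1f9, Il1rn, Il1f6, Il1a, Il1f10, Il33 and Il1b, and only the last pair did not overlap. By mean level Il1f8 was number 5 in WT mice and number 3 in Pparg-/-epi mice, and Il1f6 numbers 9 and 6. These places are a description, since neighbours mostly overlap.

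The level summed over all 10 genes was 435 ± 74.8 RPKM in WT mice (294.6 to 510) and 801 ± 169 RPKM in Pparg-/-epi mice (612.6 to 1021), without overlap. Of the difference of 365 RPKM between the means, Il18 made up 33.3% and Il1f8 27.6%. Il1f5 made up 15.9%, Il1f6 12.1% and Il1f9 11.5%. Il1f6, the gene with the largest fold change, was thus number 4 by the amount of transcript added. The IL-36 agonists were 19.1% of the family's summed level in WT mice and 33.8% in Pparg-/-epi mice.

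**Figure D5:**
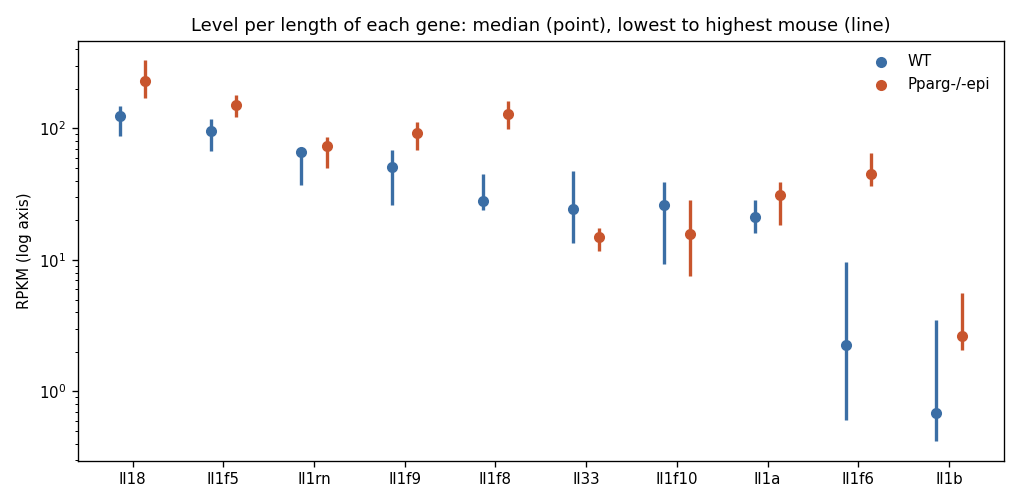
RPKM on a log axis for each gene, ordered by its mean in WT mice, with the median of 6 mice as a point and the lowest to highest mouse as a line, WT in blue and Pparg-/-epi in orange. Il18 is highest in both groups, and the blue and orange lines of Il1f6 lie apart by the widest gap.

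The cytokines were then set beside their receptors. Of the 11 receptor and decoy genes 9 were listed, of which 1 was higher and 2 were lower (33.3% altered, against 10.3% of all genes). Il1rl2, the receptor of the IL-36 cytokines, averaged 76.2 ± 17.0 CPM and 89.6 ± 11.7 CPM in the WT and Pparg-/-epi groups (log2 fold change 0.23, SE 0.15, adjusted p = 0.331). For Il1r1, the signaling receptor of IL-1, the log2 fold change was 0.02 (SE 0.12, adjusted p = 0.943). Il1rap, the accessory chain that the IL-1, IL-33 and IL-36 receptors share, was lower in every Pparg-/-epi mouse (68.4 to 79.3 CPM) than in any WT mouse (88.8 to 124.4 CPM). Its log2 fold change of -0.46 (adjusted p = 0.00337) did not reach the size required for a call.

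Il1r2, the decoy receptor that binds IL-1 without signaling, fell from 169.9 ± 39.6 to 88.7 ± 31.8 CPM (log2 fold change -0.94, SE 0.24, adjusted p = 0.0180). The chains of the IL-18 receptor moved in opposite directions. Il18r1, the chain that binds IL-18, was lower (log2 fold change -0.78, SE 0.18, adjusted p = 0.0122), and Il18rap, its accessory chain, was higher (1.33, SE 0.26, adjusted p = 0.00487). The log2 fold change was 0.59 for Il18bp, the soluble inhibitor of IL-18 (adjusted p = 0.0707), -0.32 for Il1rl1, the IL-33 receptor (adjusted p = 0.739), and 0.04 for Sigirr, an inhibitory receptor (adjusted p = 0.924).

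Of 19 genes of processing proteases and inflammasomes 16 were listed, and 6 were higher and 1 was lower (43.8% altered, against 10.3% of all genes). Aim2, a sensor of cytosolic DNA, rose from 8.84 ± 1.84 to 32.6 ± 5.69 CPM (log2 fold change 1.88, adjusted p = 4.68e-05). Casp4, the mouse caspase-11 that senses lipopolysaccharide, rose by 1.12 (adjusted p = 9.75e-04) and Capn2, a calpain, by 1.18 (adjusted p = 0.0366). Calpains cleave the IL-1α precursor. Nlrp1b, another inflammasome sensor, was lower at a log2 fold change of -1.41 (adjusted p = 0.00148). Casp1, which cleaves the precursors of IL-1β and IL-18 and is named here after its value was seen, rose from 35.9 ± 8.69 to 77.3 ± 13.7 CPM (log2 fold change 1.10, adjusted p = 0.00175), and its groups did not overlap.

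The remaining altered genes of that list were Cma1 (log2 fold change 1.45, adjusted p = 0.00727) and Mcpt4 (1.17, adjusted p = 0.0189), mast cell proteases that can cleave IL-33 or IL-18. They are also mast cell markers, and all 7 markers of that list were altered and higher, against 5.19% of all genes. Fcer1a among them had 0 to 1 reads per WT mouse and was listed through the Pparg-/-epi mice alone, so it could only come out higher. The summed level of the 7 markers was 20.02 to 95.3 CPM in WT mice and 137.6 to 249.9 CPM in Pparg-/-epi mice. The part of mast cells in the protease values was not tested.

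Of the 14 receptor adaptors and kinases, all listed, 1 was altered (7.14%, against 10.3% of all genes). It was Irak3, an inhibitory kinase of the pathway, which rose from 26.1 ± 5.70 to 56.2 ± 4.94 CPM (log2 fold change 1.10, SE 0.14, adjusted p = 3.56e-04). The median over this list was -0.06.

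Of 20 genes known to respond to IL-1 or IL-36 in keratinocytes 12 were listed, and 7 were altered, each of them higher (58.3% altered, against 10.3% of all genes). The median log2 fold change over the 12 was 1.52, against -0.01 over all genes. Il23a, a subunit of IL-23, had 0 to 11 reads per WT mouse and 10 to 47 per Pparg-/-epi mouse, and rose by 3.05 in the fit (log2 scale, adjusted p = 0.00673). With a WT mean of 0.219 CPM, Il23a was listed through the Pparg-/-epi mice, so it could hardly have come out lower. Its place among the 7 carries that limit. The antimicrobial genes S100a8 and S100a9 both rose by 2.74 (adjusted p = 0.00165 and 0.00403), Lcn2 by 2.81 (adjusted p = 0.0106) and the protease inhibitor Slpi by 2.51 (adjusted p = 0.00707). Ccl20, a chemokine, rose by 1.80 (adjusted p = 0.0384). The seventh was Nfkbiz, an NF-kB cofactor, at 0.62 (adjusted p = 0.0143). Other signals induce these genes too, and Lcn2, S100a8 and S100a9 are also abundant in neutrophils.

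Of the 9 neutrophil markers 2 were listed, Cxcr2 and Csf3r, and the defining granule genes Mpo, Elane, Ltf and Camp and the surface marker Ly6g were not among the listed genes. The 2 listed markers summed to 0.944 to 4.92 CPM in WT mice and 9.71 to 17.0 CPM in Pparg-/-epi mice. Cxcr2 was altered (log2 fold change 3.55, adjusted p = 0.00662). Csf3r did not pass the test (log2 fold change 1.14, adjusted p = 0.0688), and its groups overlapped. In Pparg-/-epi mice the means were 10.6 CPM for Cxcr2 and 2.82 CPM for Csf3r, so most of the sum there was Cxcr2. The sebocyte markers (7 of 8 listed) had 5 altered and lower members, against 5.08% of all genes. Their sum was 35.9 to 1063 CPM in WT mice and 13.6 to 52.8 CPM in Pparg-/-epi mice. The part of these cells in the cytokine values was not tested.

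The genes most like each member were sought among 12129 genes with a mean of at least 50 counts, by Pearson's r of log2 CPM over 12 mice after the mean of each genotype was subtracted. These are descriptions, since all values of a mouse share its library, scraping depth and RNA quality. Il1f6 was closest to Cxcr2 (r = 0.95), then to Rnf187 (0.93) and Ergic3 (0.92). Il1f8 was closest to Ypel4 (0.87), Srd5a3 (0.85) and Chga (0.85), and Il1f9 to Tuba8 (0.96), Krt5 (0.95) and Alox12b (0.95). Il1f5 was closest to Slc30a6 (0.94), Alox12 (0.94) and Sqle (0.93). Krt5, Alox12b and Alox12 are genes of keratinocytes.

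Fndc9 and Ceacam19 (each 0.97) were among the genes closest to Il1rn, and Il1f10 was closest to Abhd11 (0.98), Psmg3 (0.97) and Jtb (0.97). Il18 was closest to Lce1m, Adtrp and March2 (each 0.96), and Il1a to Chd3os (0.98), Otud1 (0.97) and Adipor2 (0.97). For Il33 the values were lower, at 0.88 for Col23a1 and 0.83 for Nsf and Akr1b8, and without the 2 mice farthest from its median they were 0.84, 0.43 and 0.46. Those of Il1b, with Plet1 and Aldh3a2 at 0.93 and Klk10 at 0.89, fell to 0.63, 0.74 and 0.56 in the same way.

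Among the members themselves, 45 pairs were compared in the same way. Il1a and Il18 were the most alike (r = 0.91), followed by Il18 and Il1f10 (0.90) and by Il1f9 and Il1rn (0.81). Il1b ran against most of the others, with its lowest value for Il1f5 (-0.61). WT replicate 2 stood far apart in Il1b, at 4.67 CPM against 0.553 to 1.15 CPM in the other WT mice. The same mouse had the lowest WT CPM for 7 of the members, Il1f5 among them. The pairs were not compared without that mouse, so its part in the negative values of Il1b was not tested.

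Both sexes were sequenced, 3 female and 3 male WT mice and 4 female and 2 male Pparg-/-epi mice. The test of whether the genotype effect differed by sex gave 0 of 14533 genes at an adjusted p under 0.05 and 741 at an unadjusted p under 0.05 (edgeR's quasi-likelihood test). Il1f6 had the smallest p among the members (0.0212, adjusted p = 0.895). Its CPM was 0.538 to 1.76 in female and 2.21 to 8.50 in male WT mice, and 31.98 to 48.1 in female and 35.2 to 57.2 in male Pparg-/-epi mice. The log2 difference was 5.22 in females and 3.48 in males, and no effect of sex on it was detected after adjustment. With so few mice per sex the test can neither show nor exclude such an effect. The highest male WT value is that of WT replicate 1.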

How the data were processed

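RNA was sequenced from scraped dorsal epidermis of 6 WT and 6 Pparg-/-epi mice. The authors made libraries with a KAPA mRNA HyperPrep kit, aligned paired-end 75-base reads with STAR 2.5.2b to mm10, removed multi-mapped reads and deposited read counts per gene from featureCounts (Subread 1.5.1), without normalization. Of the lines in the table, 2800 were blank and were dropped. Columns were matched to mice through the names in the labels, and for Pparg-/-epi replicates 11 and 12 also through the study's list of samples.

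Counts of 14533 genes were normalized by TMM and compared with edgeR 4.0.16 (R 4.3.3), using the quasi-likelihood test with genotype as the only term, in place of the likelihood ratio test of the study's methods, which was run as an alternative. DESeq2 1.42.0, other library scalings, a minimum mean count of 50, covariates and the omission of each mouse were also tried. CPM was computed from TMM-scaled totals and RPKM by dividing CPM by the counted length. On simulated counts for this comparison, the test found 88% of 100 genes changed 4-fold and 53% of 100 changed 2-fold, with 7 false calls. Each gene was simulated on its own, with the same spread in both groups and no differences shared by the genes of a mouse. These rates therefore need not hold for the real mice. Of the 75-base stretches of the members' GENCODE transcripts, 0.0635% of those of Il1f9 and none of the others occur in another gene. Promoter sequences are from RefSeq (GRCm38.p6).

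Genes named are the members, Pparg, all listed receptors, up to 6 altered genes of each pathway list by size, the 3 genes most like each member and the most abundant markers, with exceptions stated, and 1 gene under this rule is not reported here. The members and lists were chosen with earlier results of these data known. The mice are separate animals, and counts limit the precision of Il1b and Il1f6 most.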

Additional observations from a re-analysis of the deposited data

Results flagged for a closer look

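In 3 groups of 6 mice, out of 24 checked, 1 mouse lay far from the other 5, by a gap to its nearest neighbour above Dixon's critical value for 6 values. Chance gives this in about 1 of 20 groups. Il1b in WT replicate 2 was at 4.67 CPM, against 0.553 to 1.15 CPM in the other WT mice. In the same mouse Il1rn was at 99.6 CPM, against 163.2 to 190.7 CPM in the other WT mice. That mouse had the lowest WT CPM for 7 of the 10 genes, the agonist Il1a among them, and the lowest keratinocyte sum. Il1f6 in WT replicate 1 was at 8.50 CPM, against 0.538 to 3.09 CPM in the other WT mice, and still 3.76-fold below the lowest Pparg-/-epi mouse.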

How the results depend on the processing

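Of 219 alternative values of the 10 genes, 198 kept their direction and their side of the threshold, 7 passed it only under the alternative, 14 passed it only in the main comparison and none reversed. In female mice alone, 2 of the 7 agonists were altered (Il1f6 and Il1f8; 4 at an unadjusted p under 0.05) and 0 of the 3 antagonists (1 at an unadjusted p under 0.05), by edgeR's quasi-likelihood test. At that unadjusted p were 23.3% of all genes. The fold changes of Il18, Il1f9, Il1f5 and Il33, which lost the call there, were 0.86, 1.03, 0.76 and -0.58 on the log2 scale. That of Il33 also fell short of 0.6 in size. Fewer mice entered that fit, and 651 genes were altered in all, against 1493. Without WT replicate 2 the number was 2249. Il1f6 and Il1f8 were altered under every alternative run. Il1b was altered with the likelihood ratio test (adjusted p = 0.0271), DESeq2 (0.0197), RIN (0.0297) or age (0.0301) in the model, but not in female mice alone (log2 fold change 0.83, adjusted p = 0.488), and the cause was not tested. The ages are those of the labels, which differ from the study's list for some mice. The log2 difference of the IL-36 ratio, 1.02, was 0.77 without division by length, 1.10 in female mice and 0.94 to 1.13 without each mouse. That of the Il1a and Il1b ratio, 0.32, was 0.29, 0.13 and 0.25 to 0.41. These moves were smaller than the SD among WT mice (0.35 and 0.32), but the first exceeded the SD among Pparg-/-epi mice (0.09). No paired analysis was run, since only breeding number 222 holds both genotypes, 1 mouse of each. Of the 6 WT mice 4 have breeding number 226, which no Pparg-/-epi mouse has, so breeding number and genotype are separated only in part. Low counts limit Il1b and Il1f6 in WT mice, and RNA levels do not give the processed cytokine.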
